A study of Mus musculus with 4 samples.

Results

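Among the 22700 gene rows measured in each library, 7 genes that mark osteoclasts, the cells that dissolve bone, were followed by their symbols: Tnfrsf11a, Nfatc1, Oscar, Ctsk, Acp5, Atp6v0d2 and Calcr. RNA was sequenced from marrow of 12-week-old male mice after 7 to 8 days of culture, with 4 groups of 1 library each: db/db marrow in GM-CSF, db/+ marrow in GM-CSF, db/db marrow in M-CSF and db/+ marrow in M-CSF. The type 2 diabetic db/db mice (BKS.Cg-m+/+leprdb/J in the labels) carry a mutated leptin receptor gene, and the db/+ mice (BKS.Cg-m+/+leprdb+/J) were their control littermates. GM-CSF was given at 20 ng/ml and M-CSF at 10 ng/ml, and these are the only added factors that the labels name. The sources used here do not say how many animals gave marrow to each library. Of the 7 genes, 6 had reads in at least 1 library, 5 reached a level of 20 normalised reads in at least 1 library and could enter a fit, and Calcr was at 0 in all 4 libraries.

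Osteoclasts arise from the same marrow precursors as macrophages when M-CSF is joined by RANK ligand. RANK, encoded by Tnfrsf11a, signals through TRAF6, NF-kB and c-Fos to the transcription factor NFATc1, and immunoreceptors such as OSCAR add a calcium signal on which NFATc1 depends. NFATc1, with MITF, PU.1 and AP-1, then drives genes of bone resorption, among them Ctsk (cathepsin K, a collagen-cutting protease), Acp5 (tartrate-resistant acid phosphatase) and Atp6v0d2 (a subunit of the V-ATPase proton pump that also takes part in cell fusion). The calcitonin receptor, encoded by Calcr, is a late marker through which calcitonin restrains the mature cell. Macrophages and dendritic cells can carry several of these transcripts without being osteoclasts.

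The promoters of Ctsk and Acp5 are shown because both genes moved together with Atp6v0d2 between the cultures. Starts of 5 of the 7 genes were taken from a RefSeq table of build GRCm38.p6. No stretch was searched for Nfatc1 or Atp6v0d2. The 250 bases before the start of Ctsk lie at chr3:95498960-95499209 on the plus strand. Those before the most downstream of the 3 starts of Acp5 in the table lie at chr9:22130599-22130848 on the minus strand. Both are written 5′ to 3′ on the strand of the gene, with capitals for matches to TGANTCA (AP-1), TCANGTG (MITF and TFE factors), GAGGAAG (PU.1) or GGAAA (the NFAT core), searched on both strands.
Ctsk: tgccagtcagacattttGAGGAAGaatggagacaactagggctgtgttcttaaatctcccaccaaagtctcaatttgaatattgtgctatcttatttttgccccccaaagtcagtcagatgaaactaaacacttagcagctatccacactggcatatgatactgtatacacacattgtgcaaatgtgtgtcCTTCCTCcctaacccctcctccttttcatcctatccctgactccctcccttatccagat
Acp5: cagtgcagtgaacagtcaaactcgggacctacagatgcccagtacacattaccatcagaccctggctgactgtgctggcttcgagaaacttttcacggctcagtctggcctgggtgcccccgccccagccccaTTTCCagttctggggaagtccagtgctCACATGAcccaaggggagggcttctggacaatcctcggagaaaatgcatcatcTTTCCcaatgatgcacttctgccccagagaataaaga
In the Ctsk stretch GAGGAAG matched at 2 places, and the other motifs had 0 matches. The Acp5 stretch held 1 match to TCANGTG and 2 to GGAAA, and the stretches before its other starts held 1 GGAAA each and no other match. None of these matches overlapped another. Over the 250 bases before all 32851 starts in the table, 6.75% held TGANTCA, 12.2% held TCANGTG, 10.6% held GAGGAAG and 55.6% held GGAAA. The Tnfrsf11a stretch had 0 matches to any of the 4 motifs, the Oscar stretch had 1 TCANGTG, 1 GAGGAAG and 3 GGAAA, and 1 of the 2 Calcr stretches had 1 TCANGTG and 1 GGAAA. The TCANGTG matches read CACATGA before Acp5 but CACCTGA before Oscar and Calcr. With N as any base, this pattern is not specific to MITF and TFE factors. A match describes letters and shows no binding.

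The libraries held 25603389 to 28622706 reads, or 12801694 to 14311353 read pairs, as recovered from the deposited values. Levels below are normalised reads, that is reads divided by 1 size factor for each library. Ratios carry 95% exact intervals on read pairs, which cover counting error only, since reads copied by PCR are not independent molecules. Csf1r, the M-CSF receptor of macrophages, was at 33103 and 33550 normalised reads in GM-CSF and at 105159 and 120627 in M-CSF, in db/db and db/+. Itgax, an integrin gene of dendritic cells and GM-CSF cultures, was at 56259 and 56042 in GM-CSF and at 921 and 775 in M-CSF, in db/db and db/+. Not all markers followed these 2. The macrophage marker Cd68 was at 26213 and 24556 in GM-CSF and 11645 and 15997 in M-CSF. The dendritic marker Flt3 was at 0 in both GM-CSF libraries and at 76.7 and 53.3 in M-CSF. In the limma model below, 5 of 8 macrophage markers fell in GM-CSF and 1 rose, and 5 of 6 dendritic markers rose and 1 fell. Of all genes 29.8% rose and 27.3% fell in that model. Stromal markers, 14 genes, summed to 952 and 872 in GM-CSF and to 101758 and 47622 in M-CSF in the same order. The sums over the 7 neutrophil markers were 908 and 784 in GM-CSF and 16427 and 15646 in M-CSF. Those over the 3 mast cell markers were 2549 and 2618 against 157 and 150, but only Kit was higher in GM-CSF, at 2540 and 2614. Cpa3 went the other way, at 7.5 and 3.4 in GM-CSF and 46.2 and 39.9 in M-CSF, and Ms4a2 had at most 4.8. Markers of B cells, T cells and erythroid cells, 3 each, summed to at most 165 in any library.

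The first comparison asked how these genes differed between the GM-CSF and M-CSF cultures. Ctsk, Acp5 and Atp6v0d2 were 18.1 to 58.8 times higher in GM-CSF than in M-CSF cultures of the same genotype. Tnfrsf11a was at 0.304 and 0.266 times, and Nfatc1 at 0.771 and 0.815 times, its M-CSF level in db/db and db/+ marrow. Oscar stayed near the limit of detection and Calcr had no reads. The resorption genes and the receptor gene thus differed in opposite directions between the cultures, in marrow of either genotype.

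**Figure D1:**
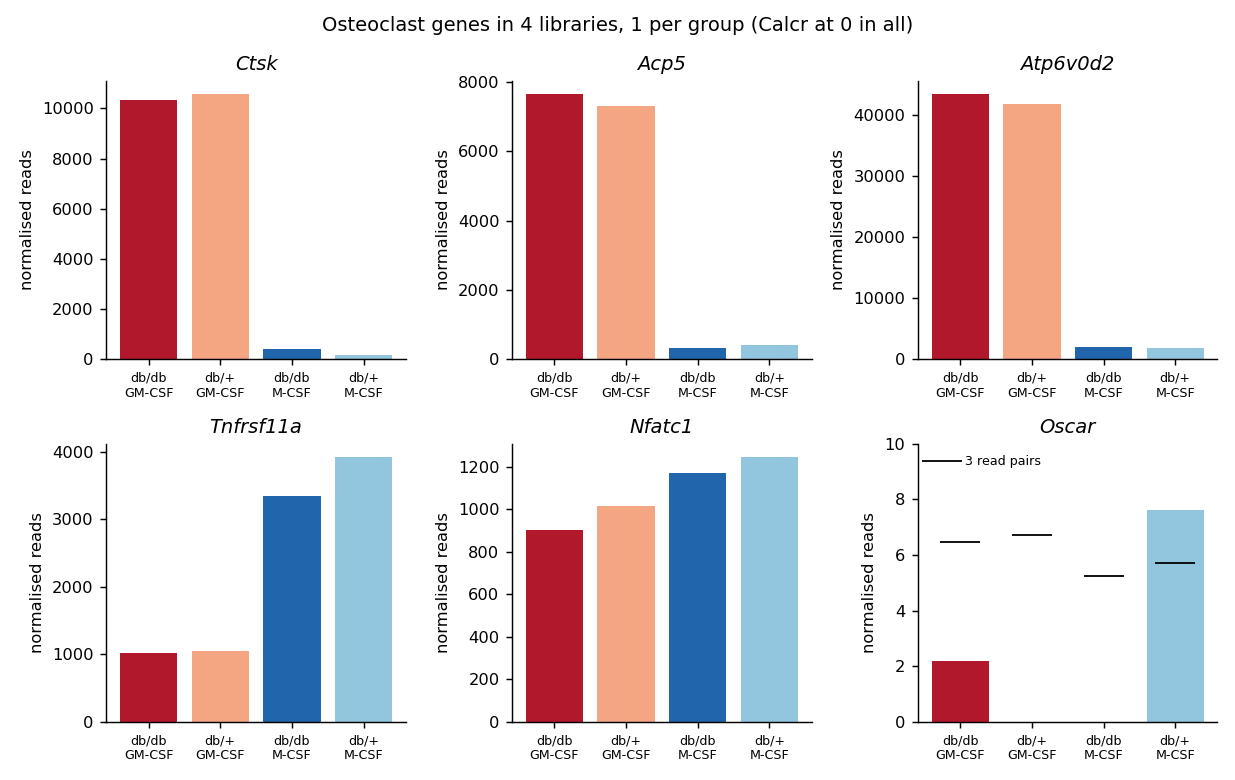
Normalised reads of 6 osteoclast genes in the 4 libraries, 1 bar per library, each panel with its own axis from 0; dashes in the Oscar panel mark 3 read pairs. Ctsk, Acp5 and Atp6v0d2 are high in both GM-CSF libraries, Tnfrsf11a is high in both M-CSF libraries, and only the db/+ M-CSF library has Oscar above its dash.

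Tnfrsf11a, the receptor, had 1020 normalised reads in db/db GM-CSF and 1045 in db/+ GM-CSF, against 3350 in db/db M-CSF and 3926 in db/+ M-CSF. Every GM-CSF library was below every M-CSF library. The ratio of GM-CSF to M-CSF was 0.304 (0.275 to 0.337) in db/db and 0.266 (0.240 to 0.295) in db/+. Its ligand gene Tnfsf11 had 0 reads in both GM-CSF libraries and 6.1 and 2.8 normalised reads in db/db and db/+ M-CSF, all under or near the floor of 3 read pairs, which was 5.23 to 6.73 normalised reads. The transcript of RANK ligand was not detectable at this depth in GM-CSF and barely so in M-CSF.

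Nfatc1, the transcription factor, had 905 normalised reads in db/db GM-CSF and 1016 in db/+ GM-CSF, against 1173 in db/db M-CSF and 1247 in db/+ M-CSF. The order of its levels was the same as for Tnfrsf11a, with the 2 M-CSF libraries on top, but the steps were small. The ratio of GM-CSF to M-CSF was 0.771 (0.682 to 0.874) in db/db and 0.815 (0.721 to 0.919) in db/+. The M-CSF neighbours in that order did not differ beyond counting error, and neither did the GM-CSF neighbours.

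Oscar, the immunoreceptor, had 2.2 normalised reads in db/db GM-CSF and 0 in db/+ GM-CSF, against 0 in db/db M-CSF and 7.6 in db/+ M-CSF. These were 2, 0, 0 and 8 reads. The db/+ M-CSF value alone exceeded 3 read pairs, and no ratio is given. Fcer1g, the adaptor chain through which OSCAR signals, was at 16839, 15726, 14300 and 15737 normalised reads in the same order, so the adaptor was abundant where the receptor was not detectable. Calcr had 0 reads in each library, which allows up to 6.45, 6.73, 5.23 and 5.71 normalised reads.

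Ctsk, the collagen-cutting protease, had 10338 normalised reads in db/db GM-CSF and 10565 in db/+ GM-CSF, against 411 in db/db M-CSF and 180 in db/+ M-CSF. The GM-CSF libraries were close to each other and far above both M-CSF libraries. The ratio of GM-CSF to M-CSF was 25.1 (22.1 to 28.8) in db/db and 58.8 (47.7 to 72.4) in db/+. On log2(normalised reads + 5), the scale of the differences below, Ctsk ranked 103rd from the top of 13642 genes in db/db and 41st in db/+.

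Acp5, the acid phosphatase used to stain osteoclasts, had 7649 normalised reads in db/db GM-CSF and 7305 in db/+ GM-CSF, against 320 in db/db M-CSF and 404 in db/+ M-CSF. The gap between the cultures again far exceeded the gap within them. The ratio of GM-CSF to M-CSF was 23.9 (20.6 to 27.8) in db/db and 18.1 (15.7 to 20.8) in db/+, and its ranks from the top were 109 and 150.

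Atp6v0d2, the pump subunit, had 43371 normalised reads in db/db GM-CSF and 41789 in db/+ GM-CSF, against 2036 in db/db M-CSF and 1734 in db/+ M-CSF. The ratio of GM-CSF to M-CSF was 21.3 (20.1 to 22.6) in db/db and 24.1 (22.5 to 25.8) in db/+, with ranks of 123 and 116. All 3 resorption genes therefore ranked among the 150 highest of 13642 differences in either genotype. At least 2-fold higher in GM-CSF were 3 of the 5 fitted genes in each genotype, beside 11.3% of all genes in db/db and 12% in db/+. At least 2-fold lower was 1 of the 5, Tnfrsf11a, beside 15.8% and 15.7%.

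In an additive limma model of culture and genotype, in which the libraries of both genotypes serve as replicates of a culture, all 5 genes passed an adjusted p of 0.05. Ctsk rose in GM-CSF by a log2 difference of 5.24 (SE 0.18, limma adjusted p = 7.37e-12), Atp6v0d2 by 4.50 (SE 0.09, 1.31e-14) and Acp5 by 4.36 (SE 0.11, 1.21e-13). Tnfrsf11a fell, with a difference of -1.81 (SE 0.09, 3.86e-10), and so did Nfatc1, at -0.33 (SE 0.10, 0.011). Of all 13642 genes 29.8% rose and 27.3% fell, 4062 and 3725 genes, so passing this test was common. With each library scaled to the same total, the median log2 difference of all genes was -0.31 instead of 0.02, 2291 genes rose and 6353 fell, and the 5 genes kept their directions.

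The model has 1 residual degree of freedom, and with no level minimum limma called 0 of 22700 genes (smallest adjusted p = 0.0628, with 8129 at an unadjusted p under 0.05), while edgeR at the level minimum of 20 called 7746. The call for Nfatc1 was also lost without a variance trend (adjusted p = 0.0911) and without any 1 of the libraries (0.0592 without db/+ GM-CSF, 0.204 without db/db GM-CSF, 0.118 without db/+ M-CSF and 0.0724 without db/db M-CSF).

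**Figure D2:**
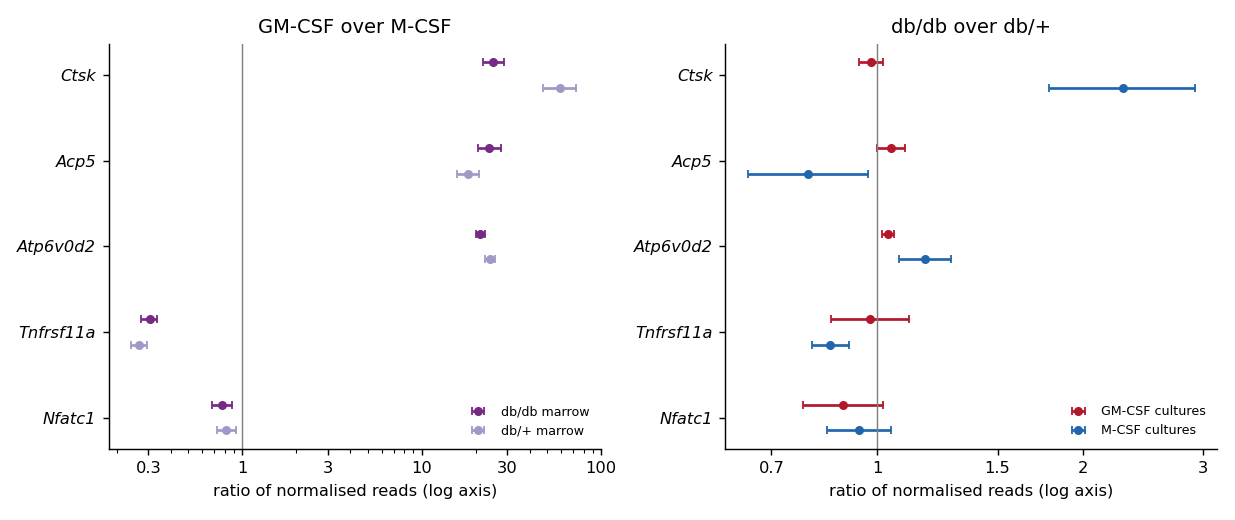
Ratios of normalised reads on log axes with 95% counting intervals; the left panel sets GM-CSF over M-CSF within each genotype, the right panel db/db over db/+ within each culture, and the line marks 1. Ctsk, Acp5 and Atp6v0d2 lie between 18.1 and 58.8 on the left, and on the right the M-CSF ratio of Ctsk, 2.29, stands apart from the other genes.

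Genes of cell fusion, attachment and acid secretion outside the 7 moved in both directions. Of 24 that could be fitted, 12 rose and 7 fell in limma, with a median log2 difference of 0.34, beside 29.8% and 27.3% of all genes and a median of 0.02. With equal totals 11 rose and 10 fell, with a median of -0.00, beside 16.8% and 46.6% of all genes and a median of -0.31. The median of the list lay above that of all genes under either scaling. Dcstamp, which encodes the fusion protein DC-STAMP, was at 2353 and 2434 normalised reads in db/db and db/+ GM-CSF, against 92.4 and 76.1 in db/db and db/+ M-CSF (log2 difference 4.75, SE 0.14, adjusted p = 1e-12). Its partner Ocstamp was at 126 and 88.6 against 6.1 and 12.4 in the same order (2.99, SE 0.39, 1.24e-05).

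Genes of acid secretion in that list were divided. Tcirg1, the osteoclast a3 subunit of the pump, rose by 1.21, the chloride transporter gene Clcn7 by 1.58, its beta subunit gene Ostm1 by 1.18, and Car2, the carbonic anhydrase that supplies protons, by 2.65 on the log2 scale. Those that did not pass were Slc4a2, an anion exchanger, at 0.04 (adjusted p = 0.736), the sodium-proton antiporter Nhedc2 at -0.35 (0.612), and the trafficking genes Plekhm1 at 0.22 (0.0548) and Snx10 at -0.18 (0.121). Of the attachment genes, Src rose by 2.26 and the integrin beta chain gene Itgb3 by 1.30, while its alpha partner Itgav fell, at -1.78. Mmp9, a gelatinase of osteoclasts, was at 53.8 and 46.0 normalised reads in db/db and db/+ GM-CSF against 403 and 491 in db/db and db/+ M-CSF, and fell (-3.04, SE 0.22, adjusted p = 1.83e-08). Sh3pxd2a, a scaffold of podosomes, also fell, at -3.93, and Siglec15, a receptor of osteoclasts, had at most 1.1 normalised reads in any library.

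Upstream, 5 of 22 fitted signalling genes rose and 8 fell, with a median of -0.03, beside 29.8% and 27.3% of all genes. With equal totals 2 rose and 15 fell, with a median of -0.37, beside 16.8% and 46.6% of all genes and a median of -0.31. Tnfrsf11b, which encodes osteoprotegerin, the decoy receptor for RANK ligand, was at 2.2 and 4.5 normalised reads in db/db and db/+ GM-CSF against 1680 and 508 in db/db and db/+ M-CSF. Its log2 difference was the lowest of that list, at -6.81 (SE 0.39, adjusted p = 1.36e-09). Osteoprotegerin is made mainly by stromal and osteoblast cells, and all 13 fitted stromal markers of 14 also fell in GM-CSF (median -6.82); the part of those cells in this difference was not tested. Traf6 rose by 0.78 and the kinase gene Tec by 1.44, whereas Nfkb2 (-1.01), Relb (-0.92) and Nfkb1 (-0.70) fell. Syk rose by 0.23 as deposited and stood at -0.12 with equal totals.

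Among transcription factors and coactivators 7 of 16 rose and 7 fell, with a median of 0.11, beside 29.8% and 27.3% of all genes. With equal totals 5 rose and 8 fell, with a median of -0.23, beside 16.8% and 46.6% of all genes and a median of -0.31. Fos, an essential factor upstream of Nfatc1, was at 619 and 643 normalised reads in db/db and db/+ GM-CSF against 2759 and 2918 in db/db and db/+ M-CSF, and fell (-2.16, SE 0.09, adjusted p = 7.73e-11). Nfatc2, a relative of Nfatc1, fell too, at -2.65. Mitf rose by 0.43 and its relative Tfec by 1.81, and Ppargc1b, a coactivator of mitochondrial genes in osteoclasts, by 2.51. Sfpi1, the gene of PU.1, was at 7353 and 6889 in GM-CSF and 6424 and 7069 in M-CSF, in db/db and db/+ (0.08, adjusted p = 0.468).

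Of 6 repressors of osteoclast formation 4 fell and 1 rose in GM-CSF, with a median of -0.76, beside 27.3% and 29.8% of all genes. Id3 was at 0 and 2.3 normalised reads in db/db and db/+ GM-CSF against 1725 and 1565 in db/db and db/+ M-CSF. Bcl6 (-1.62), Id1 (-0.87) and Irf8 (-0.64) fell as well, and Id2 rose by 1.92. Macrophages also use Irf8, and 5 of 8 macrophage markers fell in the same fit (median -0.79), 1 rose, and 5 of 6 dendritic markers rose (median 1.23). With equal totals 1 of 6 repressors rose and 5 fell (median -1.09), beside 16.8% and 46.6% of all genes and a median of -0.31. Of the 8 macrophage markers 1 then rose and 6 fell (median -1.13). Of the 6 dendritic markers 3 rose and 1 fell (median 0.91). The part of such shifts in the repressor values was not tested.

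**Figure D3:**
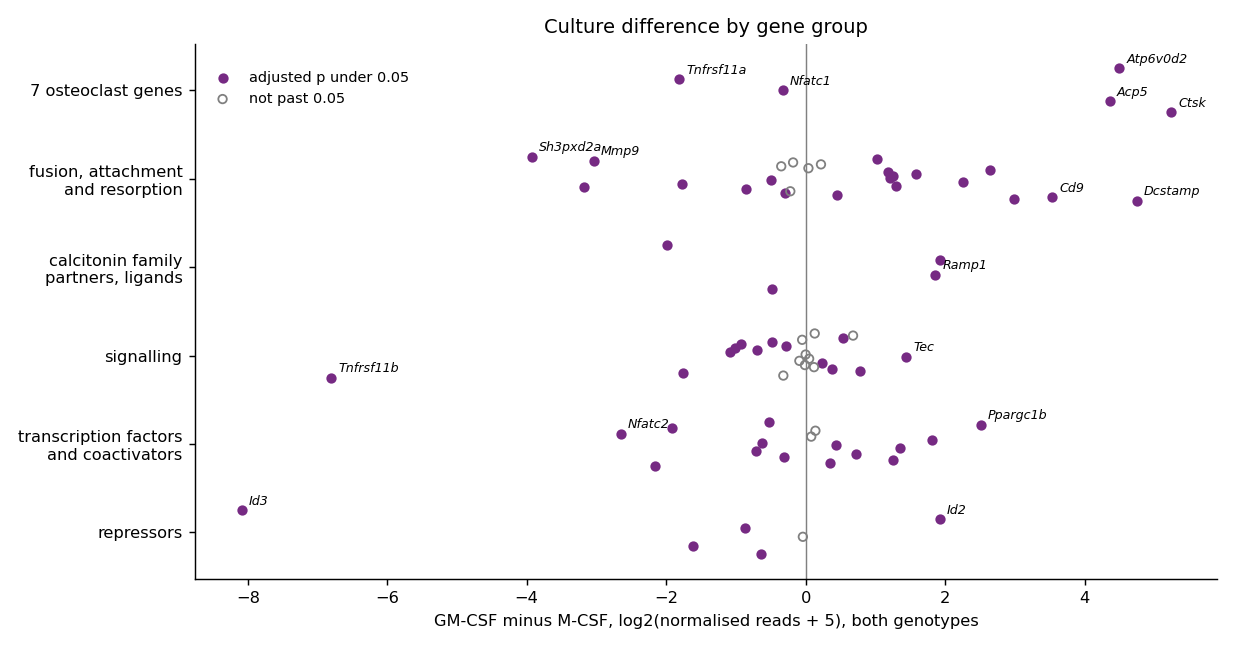
Log2 difference of GM-CSF minus M-CSF on normalised reads + 5 for each fitted gene, by gene group; filled points passed a limma adjusted p of 0.05 and open points did not, and vertical offsets only separate points. Ctsk, Atp6v0d2 and Acp5 lie to the right beside Dcstamp, and Id3 and Tnfrsf11b lie farthest left.

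Relatives of the 7 genes gave a scale for these differences. Of 13 fitted, 6 rose and 5 fell, with a median of 0.14, beside 29.8% and 27.3% of all genes. With equal totals 5 rose and 6 fell, with a median of -0.20, beside 16.8% and 46.6% of all genes and a median of -0.31. The cathepsins of macrophage lysosomes all rose, Ctsd by 2.28, Ctss by 1.91, Ctsz by 1.55, Ctsl by 1.03 and Ctsb by 0.70, beside 5.24 for Ctsk. Per kb of the longest coding transcript in GENCODE M21, Ctsk was at 6838 and 6988 normalised reads in db/db and db/+ GM-CSF and at 272 and 119 in db/db and db/+ M-CSF. On the same scale Ctss, cathepsin S, was 22.4 and 22.6 times as high as Ctsk in GM-CSF, and 151 and 351 times as high in M-CSF. Acp2, a lysosomal acid phosphatase, fell, at -0.51, beside the rise of Acp5.

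The d subunit of the pump showed a change of the leading gene. Atp6v0d1, the subunit found in most cells, rose by 1.25 (SE 0.09, limma adjusted p = 1.08e-08), against 4.50 for Atp6v0d2. Per kb of transcript, Atp6v0d2 was 3.14 and 3.09 times as high as Atp6v0d1 in db/db and db/+ GM-CSF, and 0.374 and 0.286 times as high in db/db and db/+ M-CSF. Atp6v0d2 thus made up 75.9% and 75.5% of the d subunit transcripts in GM-CSF and 27.2% and 22.3% in M-CSF, on that scale. These ratios between genes are approximate, because the gene models behind the authors' counts are not given. For Nfatc1, the per kb ratio to Nfatc2 was 8.09 and 8.16 in db/db and db/+ GM-CSF and 1.68 and 1.5 in db/db and db/+ M-CSF, while the ratio to Nfatc3 lay between 0.406 and 0.630 in all 4 libraries.

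**Figure D4:**
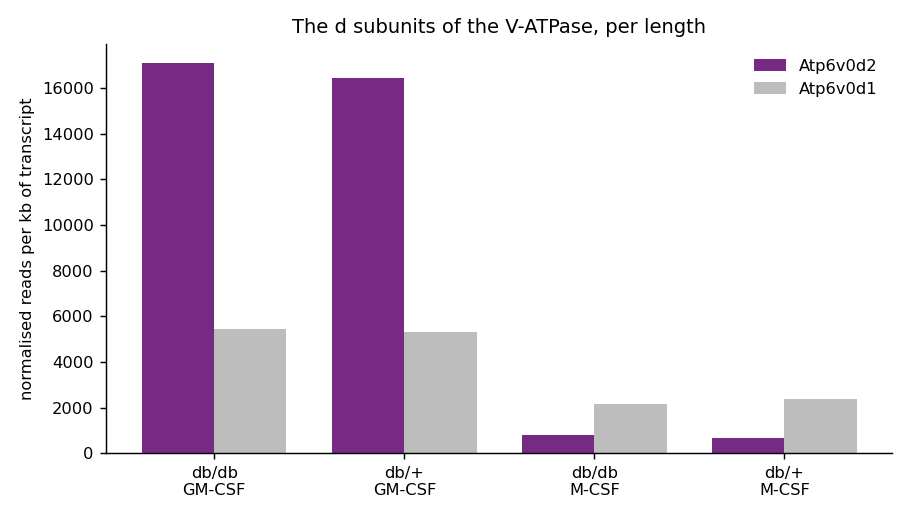
Normalised reads per kb of the longest coding transcript for Atp6v0d2 and Atp6v0d1 in the 4 libraries, 1 bar per gene and library, with the axis from 0. Atp6v0d2 is the higher of the pair in both GM-CSF libraries and the lower in both M-CSF libraries.

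Ramp1 had reads in all 4 libraries although Calcr was not detected in any. Ramp1, a partner protein of calcitonin family receptors, was at 1816 and 1772 normalised reads in db/db and db/+ GM-CSF against 483 and 498 in db/db and db/+ M-CSF, and rose (1.86, SE 0.10, adjusted p = 1.17e-09). Of the other partners, Ramp3 was at 17.2 and 21.3 in GM-CSF and 0.9 and 1.9 in M-CSF, in db/db and db/+, and Ramp2 had at most 2.6, under 3 read pairs in every library. Calcrl, the related receptor for CGRP and adrenomedullin, was at 1478 and 1442 in db/db and db/+ GM-CSF against 2056 and 2028 in db/db and db/+ M-CSF, and fell (-0.48, SE 0.09, adjusted p = 0.00034). Of 4 fitted genes of that list 2 rose and 2 fell, with a median of 0.69, beside 29.8% and 27.3% of all genes. With equal totals 2 rose and 2 fell, with a median of 0.35, beside 16.8% and 46.6% of all genes and a median of -0.31.

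The genes whose pattern over the 4 libraries lay nearest were found by the root mean square difference of centred log2 values. For Ctsk they were Tst, a sulfurtransferase, at 0.115, Rab15, a small GTPase, at 0.173, and Arnt2, a transcription factor, at 0.184. For Acp5 they were 0610040F04Rik at 0.021, AU022793 at 0.037 and O3far1, a fatty acid receptor, at 0.093. For Atp6v0d2 they were Rps6ka2, a ribosomal S6 kinase, at 0.049, Cited4, a transcriptional coregulator, at 0.059, and Tnfrsf26, a receptor of the TNF receptor family, at 0.070. Tst was at 1427 and 1363 normalised reads in db/db and db/+ GM-CSF against 47.9 and 23.8 in db/db and db/+ M-CSF. Its higher db/db value in M-CSF follows from its choice by closeness to Ctsk over these same 4 libraries. In db/db and db/+ M-CSF, O3far1 was at 2.6 and 4.8, under the floor of 3 read pairs, and Cited4 at 7.0 and 5.7, near it. Nfatc1 and Tnfrsf11a varied less than 4-fold and were not matched.

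The second comparison asked whether marrow of diabetic mice differed from control marrow in the same growth factor. In GM-CSF the 5 fitted genes lay within a narrow band, with ratios of db/db to db/+ from 0.890 to 1.05. In M-CSF Ctsk was 2.29 times as high in db/db, Atp6v0d2 1.17 times, Nfatc1 0.941 times, Tnfrsf11a 0.853 times and Acp5 0.791 times. The resorption genes thus did not move as a group with genotype in M-CSF. With 1 library per group these ratios have no replicate check.

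In GM-CSF the ratios of db/db to db/+ were 0.979 (0.940 to 1.02) for Ctsk, 1.05 (0.998 to 1.10) for Acp5 and 0.976 (0.857 to 1.11) for Tnfrsf11a. Atp6v0d2 had a ratio of 1.04 (1.02 to 1.06), and Nfatc1 of 0.890 (0.779 to 1.02). Of these only the interval of Atp6v0d2 left out 1, by a small margin on many reads. A difference of 2-fold or more was seen for 0 of the 5 genes, beside 0.586% of all genes on the higher and 0.476% on the lower side.

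In M-CSF Ctsk had 411 normalised reads in the db/db library, from 472 reads, and 180 in the db/+ library, from 189 reads. The ratio was 2.29 (1.79 to 2.92). It was the only 1 of the 5 that was at least 2-fold higher in db/db, beside 5.05% of all genes, and it ranked 502nd from the top of 13642. The ratio of Acp5 was 0.791 (0.646 to 0.969), with 320 against 404 normalised reads, and that of Tnfrsf11a 0.853 (0.802 to 0.909), with 3350 against 3926. Atp6v0d2 had 2036 against 1734 (1.17, 1.08 to 1.28), and Nfatc1 1173 against 1247 (0.941, 0.843 to 1.05). None of the 5 was at least 2-fold lower, beside 0.777% of all genes.

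Fibroblasts and other stromal cells also make cathepsin K, and stromal markers moved the same way as Ctsk in M-CSF. Of 13 fitted stromal markers 11 were higher in db/db, 10 of them at least 2-fold, beside 5.05% of all genes at that fold. Their median log2 difference was 1.33, next to 1.17 for Ctsk and 0.02 for all genes. The sum over the 14 stromal markers was 101758 in db/db and 47622 in db/+, which is 2.14 times as high. Of 4 fitted osteoblast markers 4 were higher, 3 of them at least 2-fold, beside the same 5.05% of all genes. The sum over the osteoblast list was 2496 against 892, and among them Ibsp, bone sialoprotein, was at 846 against 227. Tnfrsf11b, the decoy receptor, was 3.31 times as high (2.89 to 3.80), with 1680 against 508, and Csf1, the gene of M-CSF, 2.44 times (2.29 to 2.60). In GM-CSF the stromal sums were 952 and 872 in db/db and db/+, of which Igfbp4 made up 556 and 536. In db/db GM-CSF Col3a1, Dcn and Lum were at 0, but Postn was at 148.5, Acta2 at 86.1 and Timp3 at 60.3. Lum had at most 4.3 in M-CSF as well. The ratio of Ctsk in GM-CSF was 0.979. The part of stromal cells in the M-CSF value of Ctsk was not tested.

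**Figure D5:**
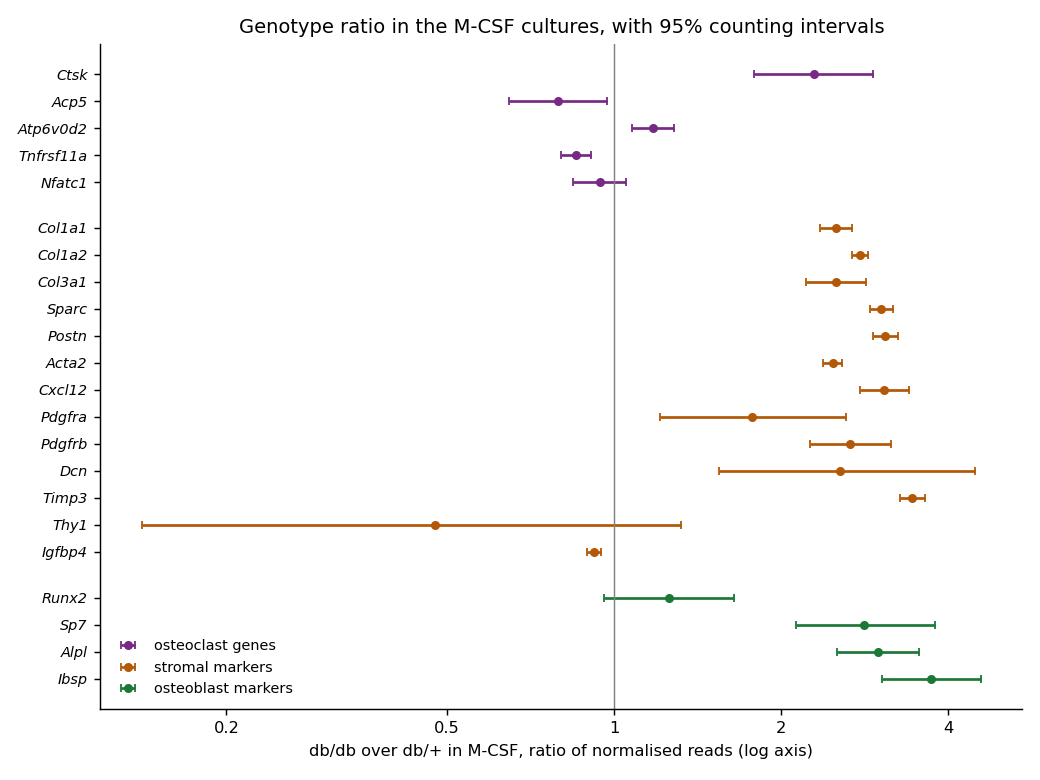
Ratio of db/db to db/+ in the M-CSF cultures on a log axis, with 95% counting intervals, for the 5 fitted osteoclast genes, 13 stromal markers and 4 osteoblast markers. Ctsk at 2.29 lies above Pdgfra at 1.77 and below the 10 stromal markers at 2.47 (Acta2) to 3.44 (Timp3). The stromal markers Igfbp4, at 0.918, and Thy1 lie below 1, as do Acp5, Tnfrsf11a and Nfatc1.

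Over both cultures none of the 5 genes passed for genotype in limma. Ctsk came nearest, with a log2 difference of 0.57 (SE 0.18, unadjusted p = 0.00817, adjusted p = 0.888). The other 4 had differences of -0.13 to 0.14 and adjusted p-values of 1. Of 13642 genes 1 rose in db/db (0.00733%) and 0 fell in limma, with 603 at an unadjusted p under 0.05. The 1 that rose was the stromal marker Sparc (log2 difference 1.37, SE 0.16, limma adjusted p = 0.0114). edgeR called 103 genes (101 higher in db/db), none of them among the 5. In the other osteoclast groups 0 of 22 signalling genes, 0 of 16 factors, 0 of 6 repressors and 0 of 24 fusion and resorption genes passed for genotype.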

How the data were processed

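The authors deposited 1 table per library with a normalised signal for each gene: counted reads over a library's size factor, kept to 1 decimal and called TMM in the file names. The submitters' processing notes list TopHat 1.2.0, edgeR, mm8 and mm9, with no role for either build. No source used here names the counting tool, the gene models or the use of strand, so antisense and overlapping genes cannot be separated. Per the labels' protocols, the libraries are paired-end and were made from total RNA after removal of ribosomal RNA.

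Whole reads were recovered by dividing by the value of 1 read (0.871 to 1.122); with a tolerance of 0.1 reads, all low values (100%) and at least 99.99% of all values came out whole. Even numbers of reads were commoner than odd ones (1035 genes with 2 reads and 693 with 1 read in db/db GM-CSF), so intervals took read pairs. The floor was 3 read pairs. Genes that reached 20 normalised reads in at least 1 library were kept, 13642 of 22700. The main effects were tested with limma 3.58.1 (eBayes, trend in the variance) on log2(normalised reads + 5) in an additive model of culture and genotype; the prior had 12.87 degrees of freedom, and p-values are two-sided with Benjamini-Hochberg adjustment over all genes kept. No interaction could be tested. edgeR 4.0.16 (quasi-likelihood) on the recovered reads was an alternative and called 7746 genes for culture and 103 for genotype. Fits were tested on simulated data. Python 3.11.15, scipy 1.17.1 and R 4.3.3 were used.

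The 7 genes, the 6 gene lists and the 10 marker lists were chosen with earlier results of these data known. A list gene is not reported here and was left out of its list. All other list genes were found, 3 of them by an older symbol (Sfpi1, Nhedc2, Emr1) through RefSeq synonyms. Named genes were the 7 genes, any list gene, and for each of the 7 that varied at least 4-fold, the 3 genes of unique symbol nearest to it over the 4 libraries. No other per-sample columns were present (0 unused).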

Additional observations from a re-analysis of the deposited data

Results flagged for a closer look

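Ctsk and Acp5 are listed here because the genotype difference pointed one way in M-CSF and the other way in GM-CSF, with 1 library in each group; the difference between the cultures was not tested, since no model of these 4 libraries leaves an error for it. For Ctsk the log2 difference of db/db minus db/+ in M-CSF exceeded that in GM-CSF by 1.2. For Acp5 the same quantity was -0.4. In GM-CSF the counting intervals of both ratios included 1 (0.940 to 1.02 for Ctsk and 0.998 to 1.10 for Acp5), so the opposite direction there was within counting error.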

How the results depend on the processing

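The 5 fitted osteoclast genes kept their direction in both main effects under every alternative run. Their culture calls held in 55 of 65 refits: the exceptions were all 5 genes with no level minimum (adjusted p from 0.0628 to 0.0842) and Nfatc1 in 5 others, namely without a variance trend and without each library in turn. Those refits without a library, chosen after seeing the data, used culture as the only factor, and took the lone library of a culture to vary like the pair of the other. In the 45 genotype refits, 0 gave an adjusted p under 0.05 for any of the 5 genes (lowest 0.285, Ctsk). Culture differences ranged over the alternatives from 4.65 to 5.82 for Ctsk, 4.02 to 4.53 for Acp5, 4.16 to 4.61 for Atp6v0d2, -2.15 to -1.69 for Tnfrsf11a and -0.67 to -0.25 for Nfatc1. With equal totals the 10 culture differences within single genotypes moved by more than the distance from the middle of their log2 counting interval to its end. The median of all genes then stood at -0.34 in db/db and -0.29 in db/+.

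Over all genes, culture calls numbered 7787, and 0 with no level minimum; leaving out 1 library gave 5009 to 7181. Genotype calls numbered 1 in the limma fit, 2 with a pseudocount of 1 and with median-of-ratios factors, 3 at a minimum of 200, 103 with edgeR, and 0 with a pseudocount of 20, with no minimum, with equal totals, without a trend and with genotype as the only factor. Genes at least 2-fold apart between genotypes in GM-CSF numbered 145, against 560 with a pseudocount of 1, 1 with a pseudocount of 20, 316 with no minimum and 13 at a minimum of 200. In M-CSF they numbered 795, against 471 with a pseudocount of 20, 1366 with no minimum and 334 at a minimum of 200. Between cultures a minimum of 200 gave 2225 in db/db and 2318 in db/+. The level minimum and the pseudocount change by construction which genes are tested and how low counts are scaled; for the other settings the cause was not tested. No paired analysis was possible because each group has 1 library. Oscar and Calcr were under the level minimum of 20, and at this depth low and absent expression cannot be told apart for them.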
